A study of Mus musculus with 24 samples.

Results

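Osteoclasts are the bone-resorbing cells of the monocyte lineage, and the genes described here are 8 that mark them or govern their formation: Tnfrsf11a, Tnfrsf11b, Nfatc1, Atp6v0d2, Calcr, Ctsk, Acp5 and Mmp9. They were chosen by name, as every probe set annotated with 1 of these symbols alone, which gave 16 of the 45101 probe sets on the array and 8 of the 18194 genes that have such a probe set. Cochleae, with their surrounding bone, came from α9−/− mice, which lack the α9 nicotinic receptor subunit gene Chrna9 constitutively in every cell, and from wild type mice, on postnatal days 3, 7, 13 and 60 (P3, P7, P13, P60). Both genotypes were 129S6 x CBA/CaJ hybrids that had been backcrossed repeatedly to CBA/CaJ. Each of the 24 arrays carried RNA of 1 pool of cochleae from several mice, with 3 pools for each genotype and age. Fragments of cerebellum, the semicircular canals and the auditory nerve had been dissected away. The study asked how gene expression in the maturing cochlea changes when α9 is lost.

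Osteoclasts form when the cytokine RANKL, encoded by Tnfsf11, binds its receptor RANK, encoded by Tnfrsf11a, on precursors that are kept alive by Csf1. This signal induces Nfatc1, the transcription factor that switches on the genes for cell fusion, acid secretion and matrix digestion. Osteoprotegerin, encoded by Tnfrsf11b, is a secreted decoy receptor that captures RANKL, and mice without it have abnormal remodelling of the bony otic capsule and lose hearing. The capsule of the normal ear is known for remodelling very little once it has formed.

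Facts on RNA quality and labels that touch the results are as follows. Control probe sets at the 3′ end of Gapdh exceeded those at the 5′ end by 6.30 to 7.69 on the log2 scale in 5 arrays, against -0.15 to 2.43 in the other 19. They were replicate 2 of the P3 α9−/− group and, among wild type, replicate 1 of P3, replicates 1 and 2 of P13 and replicate 1 of P60. The 3 Chrna9 probe sets were dim in both genotypes and none passed at any age, so they gave no check of the genotype labels. In bulk tissue such as this, fewer cells of a type and less RNA per cell cannot be told apart.

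Promoter sequence was available for 4 of the 8 genes, in 7 windows. The 250 bases before the start are shown for Ctsk and for the outermost start of Acp5, the pair of resorption enzymes whose signals followed each other closely, with matches to 4 short motifs in capitals. The motifs were TGANTCA for AP-1, TGGAAA for NFAT, GAGGAA for PU.1 and CATGTG for MITF, sought on both strands, and no match overlapped another. The sequences are from RefSeq, build GRCm38.p6, at chr3:95498960-95499209 on the plus strand for Ctsk and chr9:22135747-22135996 on the minus strand for Acp5.
Ctsk: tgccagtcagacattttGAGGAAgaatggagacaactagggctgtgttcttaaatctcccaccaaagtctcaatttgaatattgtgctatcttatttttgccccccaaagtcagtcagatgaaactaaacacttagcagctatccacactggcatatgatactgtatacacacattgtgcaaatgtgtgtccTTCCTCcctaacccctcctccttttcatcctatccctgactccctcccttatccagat
Acp5: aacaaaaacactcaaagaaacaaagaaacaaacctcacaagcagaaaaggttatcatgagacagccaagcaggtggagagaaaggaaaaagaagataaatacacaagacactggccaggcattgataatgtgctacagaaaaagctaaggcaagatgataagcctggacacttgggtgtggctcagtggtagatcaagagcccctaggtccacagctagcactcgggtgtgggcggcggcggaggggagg
The Ctsk window held 2 matches to the PU.1 motif, at 233 and 58 bases before the start, and 23.3% of the 32851 promoter windows of this length held at least 1. The Acp5 window shown held none of the 4 motifs. A further Acp5 start inside the gene had 1 NFAT match, at 117 bases before it, and 1 MITF match, at 90 bases, motifs present in 18.6% and 12.3% of all windows. AP-1 matches were absent from all 7 windows and present in 6.75% of all windows. These are letter matches and say nothing of binding.

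Between P3 and P60 the resorption genes fell and the decoy receptor rose, in both genotypes. With ages compared by limma over all 24 arrays after quantile normalization, and genotypes averaged, 13 of the 16 probe sets were lower at P60 than at P3 and 1 was higher at an adjusted p under 0.05. Of all probe sets 25.3% passed this test, 13.3% lower and 12% higher. For 12 of the 16, the 6 arrays of P60 and the 6 arrays of P3 did not overlap, against 11.3% of all probe sets. The median over the brightest probe set of each gene was -2.27 on the log2 scale, and the median over all probe sets was -0.05. Within each genotype the same fit passed 13 of the 16, 12 lower and 1 higher, where 14.3% of all probe sets passed in α9−/− cochleae and 13.7% in wild type.

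**Figure D1:**
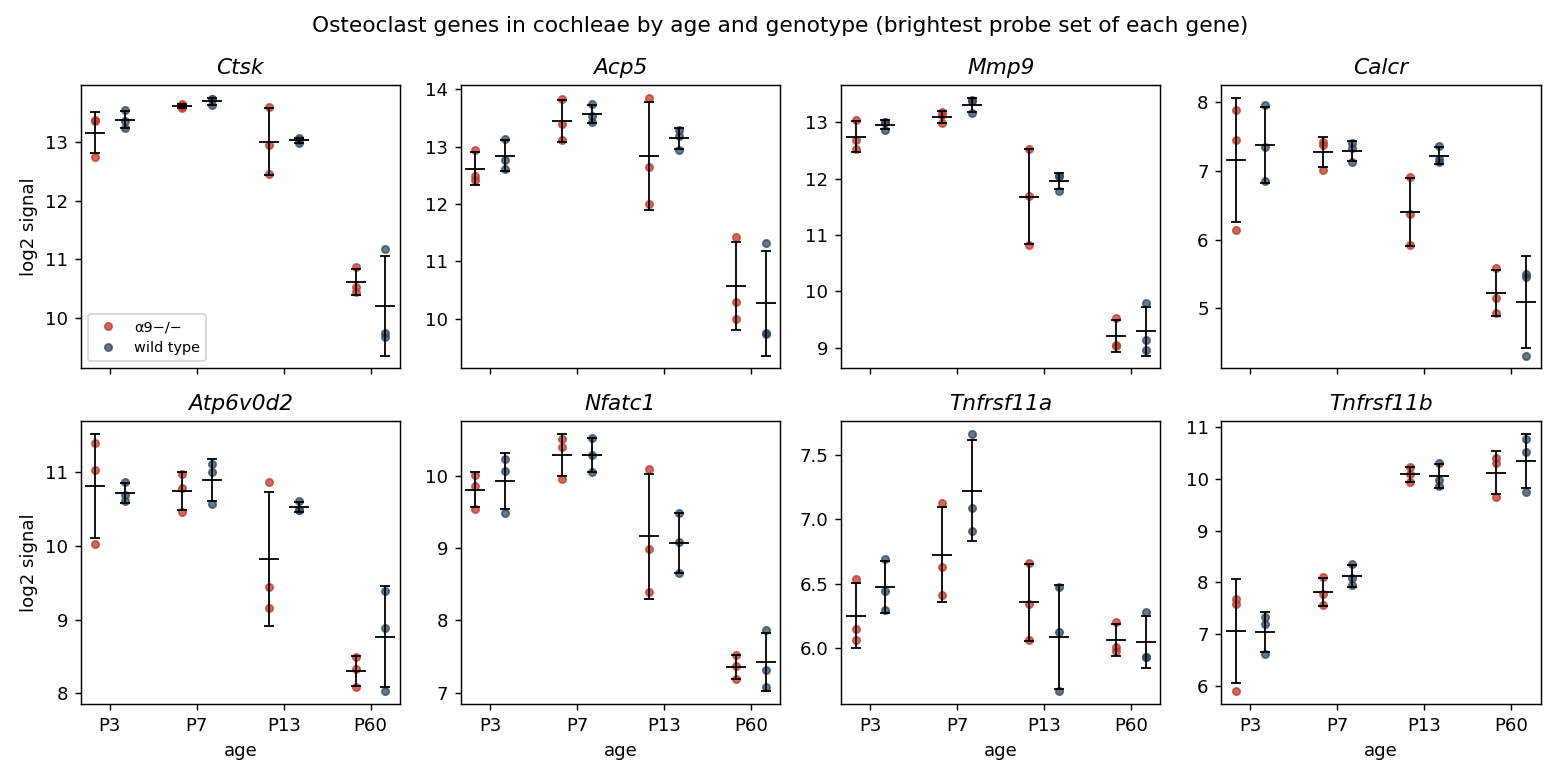
Log2 signal, after quantile normalization over all arrays, of the brightest probe set of each gene (vertical axis, with a scale of its own in each panel) at P3, P7, P13 and P60 (horizontal axis). Points are arrays, red for α9−/− and dark blue for wild type, and black marks are the mean and SD of 3 arrays. For 6 genes all P60 arrays lie below all P3 arrays, Tnfrsf11b runs the other way, and Tnfrsf11a overlaps.

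The receptor came first in the order of the pathway, and its 2 probe sets did not behave alike. Tnfrsf11a (gene ID 21934, chromosome 1 of GRCm38.p6, 105780673 to 105849444) encodes RANK. Its brighter probe set, 1419214_at, had log2 signals of 6.54, 6.15 and 6.06 in α9−/− and 6.44, 6.29 and 6.69 in wild type at P3. At P7 they were 6.63, 6.41 and 7.13 in α9−/− and 7.09, 6.91 and 7.67 in wild type. The P7 and P3 arrays overlapped in α9−/− and did not in wild type. The signal then returned to 6.66, 6.34 and 6.06 in α9−/− and 6.47, 6.13 and 5.66 in wild type at P13. At P60 it was 6.01, 5.98 and 6.21 in α9−/− and 6.28, 5.93 and 5.93 in wild type. It was thus highest at P7, by 0.61 over P3 (standard error 0.17, adjusted p = 0.0404 from limma), and lower at P13 than at P7 by 0.75 (standard error 0.17, adjusted p = 0.00532). The difference at P7 missed the threshold without each of 10 single arrays (adjusted p = 0.0505 to 0.118). These were α9−/− replicates 2 and 3 and wild type replicates 1 and 2 of P3, α9−/− replicates 1 and 3 and wild type replicate 3 of P7, replicate 2 of either genotype at P13 and α9−/− replicate 1 of P60. P60 minus P3 was -0.31 with a 95% interval of -0.67 to 0.05 (adjusted p = 0.22). The dimmer probe set 1430259_at was lower at P60 than at P3 by 2.13 (standard error 0.35, adjusted p = 0.000128). It was higher in the arrays of high Gapdh 3′ signal than in the others of their group, by 0.90 to 1.39 in all 4 groups that hold such arrays, and without those arrays P60 minus P3 was -1.82 (adjusted p = 0.00107). Over the 24 arrays both probe sets correlated with r = 0.54.

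Tnfrsf11b (gene ID 18383, chromosome 15, 54250619 to 54278484) was the only gene of the 8 whose brightest probe set was higher at P60. At 1449033_at the log2 signals at P3 were 7.68, 7.59 and 5.90 in α9−/− and 6.61, 7.33 and 7.19 in wild type. By P7 they were 8.11, 7.56 and 7.78 in α9−/− and 8.36, 8.09 and 7.95 in wild type. At P13 all 6 arrays had moved to near 10, with 9.93, 10.23 and 10.09 in α9−/− and 9.98, 10.31 and 9.86 in wild type, above every P7 array. They stayed there at P60, with 10.29, 10.40 and 9.64 in α9−/− and 10.76, 10.52 and 9.75 in wild type. The step of 2.09 between P13 and P7 (standard error 0.26, adjusted p = 1.4e-05 from limma) was 4.26-fold, and P60 exceeded P3 by 3.17 (standard error 0.26, adjusted p = 2.42e-08), or 9.03-fold. P7 exceeded P3 by 0.92 (adjusted p = 0.0386), which missed the threshold without each of 8 single arrays (adjusted p = 0.057 to 0.0873), namely α9−/− replicate 3 and wild type replicates 1 and 3 of P3, and α9−/− replicates 1 and 3 and wild type replicates 1, 2 and 3 of P7. Between P60 and P13 the difference was 0.16 with a 95% interval of -0.38 to 0.70.

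The other Tnfrsf11b probe set, 1418309_at, gave a less certain account. Its P60 minus P3 difference was 1.53 (standard error 0.60, adjusted p = 0.0698), and it correlated with the brighter one at only r = 0.40 over 24 arrays. In the arrays of high Gapdh 3′ signal it was lower than in the others of their group by 1.27 to 3.29, in all 4 groups. Without those 5 arrays P60 minus P3 was 1.57 (standard error 0.38, adjusted p = 0.00581) and P13 minus P7 was 1.64 (standard error 0.40, adjusted p = 0.0132), against 0.54 (adjusted p = 0.607) with them.

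**Figure D2:**
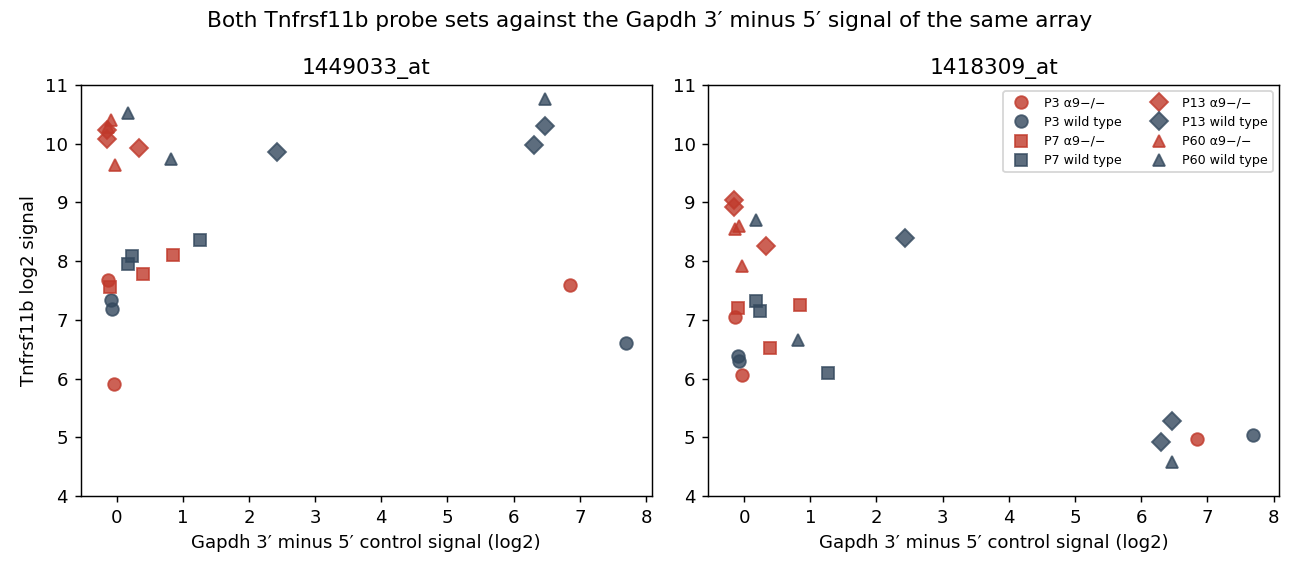
Log2 signal of both Tnfrsf11b probe sets (vertical axes, quantile-normalized) against the Gapdh 3′ minus 5′ log2 control signal of the same array (horizontal axes). Each point is 1 array, red for α9−/− and dark blue for wild type, with a shape for each age. Of the 5 arrays above 6, only wild type replicate 1 of P3 is the lowest of its group at 1449033_at. At 1418309_at each is the lowest of its group or, at P13, they are the lowest 2.

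Nfatc1 (gene ID 18018, chromosome 18, 80606205 to 80713071) is the factor that RANK induces in osteoclast precursors, and it also acts in lymphocytes and heart valves. At its brightest probe set, 1417621_at, the signals at P3 were 10.02, 9.54 and 9.87 in α9−/− and 9.49, 10.07 and 10.23 in wild type. At P7 they were 10.52, 9.96 and 10.41 in α9−/− and 10.30, 10.06 and 10.53 in wild type. At P13 the pools spread out, to 10.10, 8.99 and 8.40 in α9−/− and 8.66, 9.09 and 9.49 in wild type. At P60 all were under 8, with 7.37, 7.19 and 7.52 in α9−/− and 7.08, 7.31 and 7.86 in wild type. P13 was lower than P7 by 1.17 (standard error 0.24, adjusted p = 0.00187), and P60 than P3 by 2.48 (standard error 0.24, adjusted p = 1.76e-07), a 5.59-fold difference. All 5 Nfatc1 probe sets were lower at P60 than at P3, by 0.72 to 2.67, and the smallest change was that of 1428479_at. Their correlations with 1417621_at over 24 arrays were 0.74 to 0.85. In the arrays of high Gapdh 3′ signal 1417621_at was lower than in the others of their group, by 0.34 to 0.77 in all 4 groups. The wild type signals of 8.66 and 9.09 at P13 came from such arrays. At 1447085_s_at and 1447084_at these arrays were higher in all 4 groups. Without them P60 minus P3 at 1417621_at was -2.58.

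Atp6v0d2 (gene ID 242341, chromosome 4, 19876838 to 19922566) encodes the d2 subunit of the proton pump and is needed for osteoclast precursors to fuse. At 1434798_at the P3 signals were 11.03, 11.40 and 10.02 in α9−/− and 10.69, 10.61 and 10.88 in wild type. At P13 they were 10.87, 9.45 and 9.16 in α9−/− and 10.61, 10.49 and 10.49 in wild type, so that 2 of the 3 α9−/− pools lay below every wild type pool. At P60 they were 8.33, 8.09 and 8.50 in α9−/− and 9.39, 8.03 and 8.89 in wild type. The P60 level was lower than that of P3 by 2.23 (standard error 0.27, adjusted p = 4.38e-06) at this probe set and by 2.64 (standard error 0.26, adjusted p = 2.32e-07) at 1444176_at. The P7 signals, 10.47 to 10.98 in α9−/− and 10.58 to 11.11 in wild type, overlapped those of P3.

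Calcr (gene ID 12311, chromosome 6, 3685678 to 3764713) encodes the calcitonin receptor, a late osteoclast marker through which calcitonin halts resorption, and it is also expressed in brain. Its P3 signals were 7.45, 7.89 and 6.14 in α9−/− and 7.96, 6.85 and 7.35 in wild type. At P7 they were 7.43, 7.39 and 7.02 in α9−/− and 7.41, 7.13 and 7.33 in wild type. At P13 the genotypes did not overlap, with 6.91, 6.37 and 5.92 in α9−/− and 7.14, 7.36 and 7.17 in wild type. On the deposited values, 41.9% of all tested probe sets were likewise without overlap at P13, and the Calcr difference was not called. At P60 the genotypes overlapped, with 5.59, 5.15 and 4.92 in α9−/− and 5.45, 4.31 and 5.50 in wild type. P60 was lower than P3 by 2.12 (standard error 0.28, adjusted p = 8.3e-06), and lower than P13 by 1.66 (standard error 0.28, adjusted p = 0.000227).

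Of the enzymes of resorption, Ctsk (gene ID 13038, chromosome 3, 95499210 to 95509387) encodes cathepsin K, the protease that digests bone collagen. Its signals at P3 were 13.37, 13.36 and 12.75 in α9−/− and 13.36, 13.24 and 13.54 in wild type. They were tightest at P7, with 13.58, 13.65 and 13.61 in α9−/− and 13.73, 13.63 and 13.73 in wild type. At P13 they were 13.60, 12.95 and 12.46 in α9−/− and 13.07, 12.99 and 13.03 in wild type, and at P60 10.54, 10.45 and 10.87 in α9−/− and 9.69, 9.76 and 11.19 in wild type. No P60 array reached the lowest array of an earlier age. The P60 level was lower than that of P13 by 2.60 (standard error 0.22, adjusted p = 9.95e-08) and than that of P3 by 2.86 (standard error 0.22, adjusted p = 1.06e-08), or 7.24-fold. P13 minus P7 was -0.64 (adjusted p = 0.0555), and it passed without each of 4 single arrays (adjusted p = 0.00961 to 0.0499), α9−/− replicate 1 of P13 and wild type replicates 1, 2 and 3 of P60.

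Acp5 (gene ID 11433, chromosome 9, 22126727 to 22135746) encodes tartrate-resistant acid phosphatase, the classical stain for osteoclasts. Its P3 signals were 12.42, 12.94 and 12.49 in α9−/− and 13.14, 12.62 and 12.76 in wild type. At P7 they were 13.83, 13.12 and 13.38 in α9−/− and 13.54, 13.43 and 13.74 in wild type, a difference from P3 of 0.78 that did not pass (adjusted p = 0.155). At P13 the α9−/− pools gave 13.85, 12.65 and 11.99, and the wild type pools 13.30, 12.94 and 13.19. At P60 replicate 3 was the highest of both genotypes, with 10.29, 9.99 and 11.43 in α9−/− and 9.76, 9.73 and 11.32 in wild type. P60 was lower than P13 by 2.57 (standard error 0.31, adjusted p = 7.21e-06) and than P3 by 2.31 (standard error 0.31, adjusted p = 1.23e-05).

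Mmp9 (gene ID 17395, chromosome 2, 164940326 to 164955850) encodes a gelatinase of osteoclasts that neutrophils also store. At 1416298_at the P3 signals were 12.68, 13.04 and 12.52 in α9−/− and 12.87 to 13.01 in wild type. At P7 they were 13.19, 12.98 and 13.13 in α9−/− and 13.38, 13.17 and 13.38 in wild type. The decline had begun by P13, with 12.53, 11.69 and 10.83 in α9−/− and 12.04, 11.79 and 12.04 in wild type, all below every P7 array. At P60 the signals were 9.05, 9.02 and 9.53 in α9−/− and 9.14, 8.96 and 9.79 in wild type. P13 was lower than P7 by 1.39 (standard error 0.21, adjusted p = 0.00013), P60 than P13 by 2.57 (standard error 0.21, adjusted p = 6.41e-08) and P60 than P3 by 3.60 (standard error 0.21, adjusted p = 2.47e-10), a 12.1-fold difference and the largest of the 16 probe sets. At 1448291_at P60 was lower than P3 by 3.44 (standard error 0.37, adjusted p = 8.89e-07), and this probe set was lower by 1.15 to 1.55 in the arrays of high Gapdh 3′ signal in all 4 groups.

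The steps that passed the threshold were not the same for all genes. From P3 to P7, 2 of the 16 probe sets passed, both higher (Tnfrsf11a 1419214_at and Tnfrsf11b 1449033_at), against 6.19% of all probe sets (2.19% higher). From P7 to P13, 7 passed, against 15.8% of all (9.32% higher, 6.51% lower). Tnfrsf11b was higher, while both Mmp9 probe sets, both Tnfrsf11a probe sets, 1 of Atp6v0d2 and 1 of Nfatc1 were lower. The dimmer Tnfrsf11a set missed the threshold without each of 9 single arrays (adjusted p = 0.0522 to 0.105), which were α9−/− replicates 1 and 3 and wild type replicates 1, 2 and 3 of P7 and replicates 2 and 3 of both genotypes at P13. From P13 to P60, 12 passed, all lower, against 20.9% of all (11.3% lower), and neither Tnfrsf11a nor Tnfrsf11b was among them. The Nfatc1 set 1425761_a_at missed the threshold there without each of 6 single arrays (adjusted p = 0.0518 to 0.0814), which were α9−/− replicate 1 and wild type replicates 1 and 3 of P13, and α9−/− replicates 1 and 2 and wild type replicate 3 of P60. For Ctsk, Acp5 and Calcr the drop between P13 and P60 was the first step to pass. Steps of similar size fell on both sides of the threshold: from P7 to P13 Ctsk, at -0.64, did not pass and Tnfrsf11a 1419214_at, at -0.75, did. Whether the steps differ between genes was not tested.

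Other genes of the pathway, taken from 2 lists at the brightest probe set of each gene, moved in part the same way. Of 16 measured genes of osteoclast differentiation signals, 7 were lower and 2 higher at P60 than at P3, with a median of -0.54. Of 15 genes of fusion and the ruffled border, the acid-secreting membrane, 8 were lower and 2 higher, with a median of -0.63. The median over the brightest probe sets of all genes was -0.06. The background of 25.3% given above is for all probe sets, also those that are not the brightest of a gene. The share among the brightest alone was not counted.

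The ligand fell with the effector genes. Tnfsf11, which encodes RANKL, had log2 signals at P3 of 7.53, 7.99 and 6.56 in α9−/− and 7.34, 7.32 and 7.13 in wild type. At P13 it had 6.69, 6.05 and 5.52 in α9−/− and 7.69, 7.01 and 6.69 in wild type, with 1 α9−/− pool level with the lowest wild type pool. At P60 it had 4.79, 4.79 and 4.95 in α9−/− and 5.65, 4.50 and 4.97 in wild type, all below every P3 array. The difference between P60 and P3 was -2.37 (standard error 0.24, adjusted p = 4.39e-07), 5.17-fold lower. The wild type Tnfsf11 signals of 7.69 and 7.01 at P13 came from arrays of high Gapdh 3′ signal. In the P3 and P60 groups that held such arrays, these were also the highest, and the part of RNA quality was not tested. Csf1, the survival factor, was lower by 0.97 (adjusted p = 1.14e-06) and its receptor Csf1r by 0.89 (adjusted p = 0.00011). Oscar, a costimulatory receptor of osteoclasts, was lower by 2.53 (adjusted p = 5.55e-07). Prdm1, which represses inhibitors of Nfatc1, was lower by 2.55 (adjusted p = 1.36e-08). Irf8, a repressor of osteoclast formation that also drives monocyte development, was higher by 1.54 (adjusted p = 1.46e-06), and Mitf, a factor of osteoclasts and of pigment cells, by 1.03 (adjusted p = 0.00174).

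The fusion genes included the largest difference of both lists. Ocstamp, a membrane protein needed for precursors to fuse, ranged from 8.18 to 9.36 over the 6 arrays of P3 (median 8.93), from 8.84 to 9.64 at P7 (median 9.45), from 6.38 to 8.31 at P13 (median 7.23) and from 4.43 to 5.14 at P60 (median 4.55). P60 was lower than P3 by 4.16 (standard error 0.27, adjusted p = 1.23e-09), or 17.9-fold. Its partner in fusion, Dcstamp, was lower by 2.27 (adjusted p = 6.75e-06). Mmp14, a membrane metalloproteinase shared with bone and connective tissue cells, was lower by 2.08 (adjusted p = 1.17e-06), and Snx10, which sorts vesicles to the ruffled border, by 1.17 (adjusted p = 0.000177). Car2, the carbonic anhydrase that supplies protons to the osteoclast and is also abundant in red cells and oligodendrocytes, was higher by 1.96 (adjusted p = 1.92e-07).

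**Figure D3:**
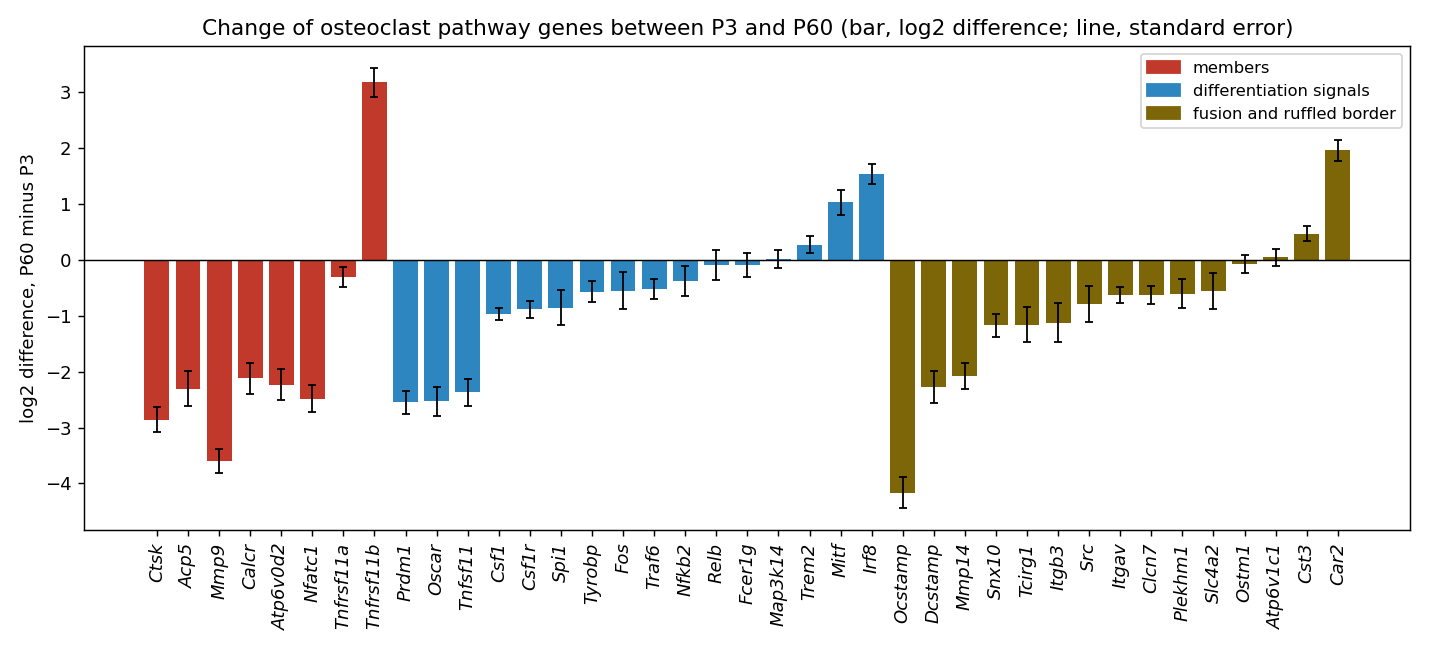
Log2 difference of P60 minus P3, averaged over genotypes (vertical axis), for the brightest probe set of the 8 genes (red), 16 genes of differentiation signals (blue) and 15 genes of fusion and the ruffled border (brown). Lines are standard errors of the limma fit. Ocstamp and Mmp9 have the lowest bars, at -4.16 and -3.60, and Tnfrsf11b the highest, at 3.17.

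Markers of other cells in the tissue moved in different directions over the same ages. The counts that follow use the brightest probe set of each gene and an adjusted p under 0.05. Of all probe sets, 12% were higher and 13.3% lower at P60 than at P3. All 11 neutrophil genes measured were higher at P60 than at P3, with a median of 3.96, while Mmp9, which neutrophils share, was lower by 3.60. The mean signal of the neutrophil list ran from 11.2 to 11.7 in the P60 arrays and from 6.70 to 8.0 in the P3 arrays. Of 12 macrophage and monocyte genes, 5 were higher (Lyz2 by 2.99, Ctss by 2.64) and 2 lower (Cd68 by 1.62, Mrc1 by 0.81), and the mean of that list ran from 8.54 to 9.89 at P60 and from 8.48 to 8.83 at P3. Of 10 osteoblast and osteocyte genes, 7 were lower, with a median of -1.20, and the list mean ran from 10.4 to 10.8 at P60 and from 11.5 to 11.7 at P3. Of 8 cartilage genes 6 were lower, with a median of -3.01. Of 8 cerebellum and hindbrain genes 6 were higher, and of 6 skeletal muscle genes 3. After each group's mean was taken out, Tnfrsf11b correlated with the mean of the skeletal muscle list at r = -0.86 over the 24 arrays. This was the largest correlation in size between a member and a marker list. For the other members r with that list ran from -0.26 (Atp6v0d2) to 0.50 (Acp5). What part such shifts in tissue makeup had in the members' changes was not tested. All 13 cochlear marker genes were measured, of which 4 were higher and 3 lower at P60, with a median of 0.04 and a range of -6.09 to 3.95.

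**Figure D4:**
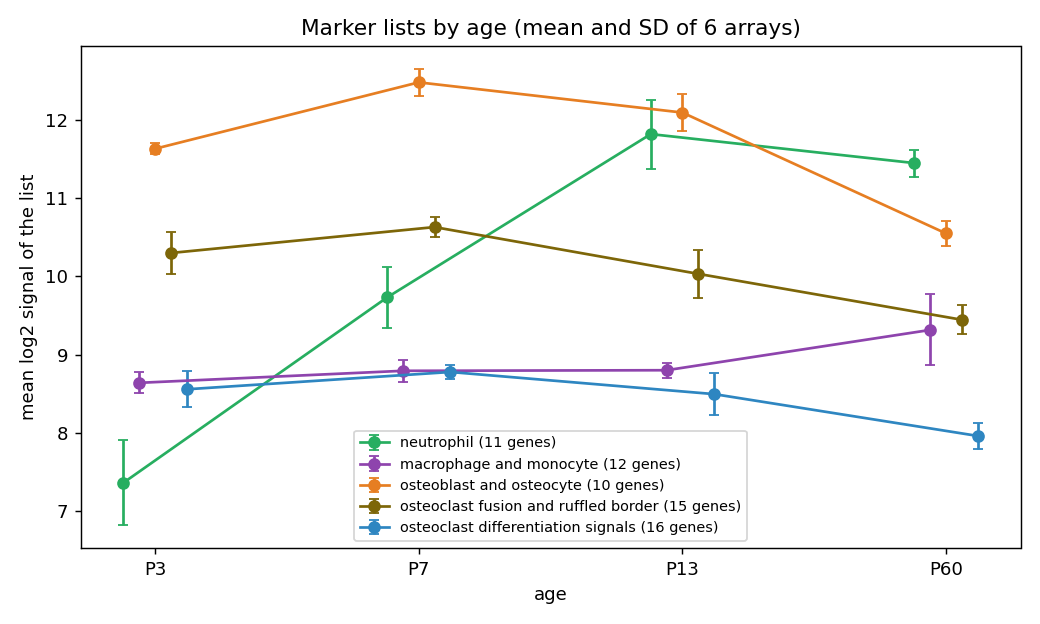
Mean log2 signal (vertical axis) of 5 marker lists at P3, P7, P13 and P60 (horizontal axis), after quantile normalization, with points at the mean over 6 arrays an age, both genotypes together, and bars of 1 SD. The neutrophil list climbs between P3 and P13, the osteoblast and osteocyte list peaks at P7 and is lowest at P60, and both osteoclast lists are lowest at P60.

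The genes were also described by how closely they followed each other over the 24 arrays, which share the 4 ages and so the age trend. Ctsk correlated with Acp5 at r = 0.96 and with Mmp9 at r = 0.97, and Tnfrsf11b with Mmp9 at r = -0.75. After each group's mean was taken out, Ctsk and Acp5 still had r = 0.84, Acp5 and Mmp9 0.90, and Tnfrsf11b and Mmp9 -0.16. Other pairs fell further. Among pairs without Tnfrsf11b, r then ran from 0.14 (Calcr and Nfatc1, 0.84 before) to 0.90, with 0.26 for Nfatc1 and Tnfrsf11a. The 5 genes most like Ctsk by Pearson r over the 24 arrays were Tnc (0.98), Slc9b2 (0.97), Pcdh12 (0.96), Mmp13 (0.96) and Smpd3 (0.96). Those most like Tnfrsf11b were Dnase1 (0.97), Srgn (0.96), Kcnj16 (0.96), Slc13a4 (0.96) and Hsd11b1 (0.95).

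Loss of α9 gave no called difference in these genes at any age. Genotypes were compared within each age by limma on the deposited log2 values, over the 18041 probe sets of highest variance, which held 14 of the 16. A probe set was called where its log2 difference exceeded 1.5 and its adjusted p was below 0.05. At P3 0 of the 14 were called, with 0% of all tested, and 0 had an unadjusted limma p under 0.05, against 1.75% of all tested. At P7 0 were called, with 0.0111% of all, and 0 had an unadjusted p under 0.05, against 1.48%. At P13 0 were called, with 7.06% of all, and 3 had an unadjusted p under 0.05, a smaller share than the 37.3% of all. At P60 0 were called, with 0% of all, and 0 had an unadjusted p under 0.05, against 6.1%.

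**Figure D5:**
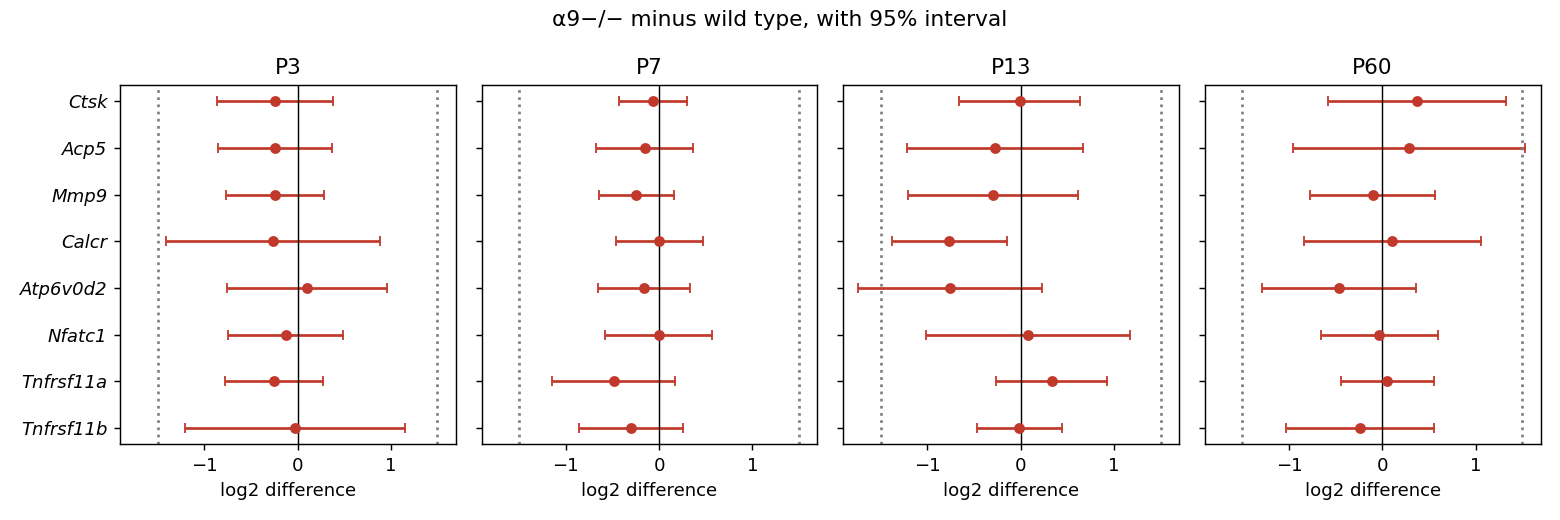
Difference in log2 signal, α9−/− minus wild type (horizontal axis), for the brightest probe set of each gene at P3, P7, P13 and P60. Points are the estimates of limma within an age over all probe sets and bars their 95% intervals, and dotted lines mark a difference of 1.5 either way. Every estimate lies between -0.76 and 0.38, and at P13 the interval of Calcr lies below 0.

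At the brightest probe sets the largest difference in size was -0.76, for Calcr at P13, where the median size over all tested probe sets was 0.62. α9−/− minus wild type ran from -0.26 to 0.10 at P3, from -0.49 to 0.00 at P7, from -0.76 to 0.33 at P13 and from -0.46 to 0.38 at P60. The 95% intervals, from a fit over all probe sets, were wide, reaching from -1.41 to 1.15 at P3, -1.15 to 0.57 at P7, -1.74 to 1.17 at P13 and -1.28 to 1.53 at P60, so that moderate differences were not detectable with 3 pools a genotype. Larger ones could be missed too. In simulated data a log2 difference of 2 passed at an adjusted p under 0.05 in only 13.4% to 46.3% of cases, depending on the age.

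The 3 probe sets with an unadjusted p under 0.05 at P13, where 37.3% of all tested probe sets had one, are given as values and were not called. Calcr averaged 6.59 ± 0.48 in α9−/− and 7.36 ± 0.16 in wild type (SD, n = 3 each) on the deposited scale, which gave -0.76 with a standard error of 0.30 (adjusted p = 0.113 from limma). Nfatc1 at 1425761_a_at averaged 8.21 ± 0.57 in α9−/− and 7.05 ± 0.54 in wild type (SD, n = 3 each), which gave 1.17 with a standard error of 0.39 (adjusted p = 0.0791 from limma). These were the only 2 of the 14 whose genotypes did not overlap at P13, against 41.9% of all tested probe sets. At P3 and P7 0 of the 14 were without overlap, against 5.78% and 4% of all, and at P60 2 were, both of Nfatc1, against 11.7%. Those of P60 differed in sign, with 0.45 at 1425761_a_at and -0.55 at 1447085_s_at. The remaining Nfatc1 probe sets did not share the sign of 1425761_a_at at P13 either, save 1417621_at. They gave 0.08 at 1417621_at, -0.30 at 1428479_at, -0.30 at 1447085_s_at and -0.83 at 1447084_at. Tnfrsf11b at 1418309_at averaged 8.97 ± 0.45 in α9−/− and 6.5 ± 1.90 in wild type (SD, n = 3 each), which gave 2.47 with a standard error of 0.85 (adjusted p = 0.0821 from limma).

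Of the 6 arrays of P13, 2 had high Gapdh 3′ signal, both wild type. The P13 wild type arrays at 1418309_at had quantile-normalized signals of 4.93, 5.28 and 8.40, against 8.26, 8.93 and 9.03 in α9−/−, and the 2 low ones were the arrays with high Gapdh 3′ signal. Without those arrays the difference of Tnfrsf11b at this probe set was 0.28, that of Nfatc1 at 1425761_a_at 0.61 and that of Calcr -0.80. These are values from 1 remaining wild type pool, whose spread could not be estimated, and the part of RNA quality was not tested further. The brighter Tnfrsf11b probe set, 1449033_at, averaged 10.34 ± 0.16 in α9−/− and 10.35 ± 0.24 in wild type at P13 (SD, n = 3 each), a difference of -0.01 with a 95% interval of -0.47 to 0.44.

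The α9−/− pools of P13 differed among themselves more than those of other ages. Replicate 1 was the highest of the 3 for 7 of the 8 genes and replicate 3 the lowest for 7, with Tnfrsf11b the exception in both. The median spread between the highest and the lowest pool was 1.42 in α9−/− at P13 and 0.31 in wild type at P13. In the other α9−/− groups it was 0.57 at P3, 0.53 at P7 and 0.46 at P60, and in the other wild type groups 0.46 at P3, 0.36 at P7 and 1.10 at P60. The list of fusion and ruffled border genes, on the deposited scale, likewise averaged 10.7, 10.1 and 9.95 in the 3 α9−/− pools of P13, against 10.5, 10.1 and 10.2 in wild type. The difference in spread was not tested.

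The change of the genotype difference between ages was tested directly. None of the 16 probe sets passed for P7 against P3, P13 against P7, P60 against P13 or P60 against P3 in limma, where the share of all probe sets that passed was 0%, 0.00222%, 0% and 0%. At an unadjusted p under 0.05 the counts were 0, 1, 0 and 0 of 16, against 1.37%, 8.89%, 4% and 3.59% of all probe sets, the 1 being Tnfrsf11a at 1419214_at. Among the pathway lists, 1 gene passed between genotypes at P13 at an adjusted p under 0.05, where 14.1% of all tested probe sets did (10.1% higher): Mmp14 was higher in α9−/− by 1.34 (adjusted p = 0.0215). Its quantile-normalized P13 signals were 11.32, 10.96 and 10.93 in α9−/− and 9.91, 9.40 and 9.76 in wild type. The wild type 9.91 and 9.40 came from arrays of high Gapdh 3′ signal. In the P3 and P60 groups that held such arrays, these were the lowest for Mmp14, and the part of RNA quality was not tested. None of the 12 tested differentiation signal genes passed at any age.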

How the data were processed

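Each of 24 Affymetrix mouse whole-genome arrays carried RNA from 1 pool of cochleae, with 3 arrays a group. The deposited values are log2 signals per probe set, which the authors made with AffyPLM, correcting background as in RMA, normalizing by quantiles and summarizing probes by Tukey's biweight. Array medians ran from 6.49 to 6.89 and differed between ages, so arrays were quantile-normalized again before ages were compared. Their number limits the precision, and p-values measure the spread between pools. Symbols came from the platform annotation, and a gene with several probe sets is shown at its brightest.

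Genotypes were compared within each age with limma 3.58.1 in R 4.3.3 after keeping the most variable 40% of probe sets, with Benjamini-Hochberg adjustment. Ages and interactions were tested in 1 fit over all arrays and all probe sets. Both fits were tested on simulated data with 200 changed probe sets. More passed in the real data between genotypes at P13 (2548) and for P60 minus P3 (11430), so the simulated shares need not hold there. Between genotypes, log2 changes of 1 passed at an adjusted p under 0.05 in 0% to 2.99% of cases, depending on the age. Changes of 2 passed in 22.4%, 46.3%, 46.3% and 13.4% at P3, P7, P13 and P60, and changes of 3 in 50% to 81.8%. For P60 minus P3, changes of 1, 2 and 3 passed in 58.2%, 97% and 100%. All member probe sets are named. Pathway genes named are Tnfsf11, Csf1, Csf1r and the 5 of largest P60 minus P3 difference per list, marker genes those of highest signal in their list, and Mmp14 at P13 was named after its value was seen. Alternatives covered filter, threshold, normalization, array weights, replicate block, probe set choice, arrays of high Gapdh 3′ signal and leaving out each array. The members and lists were chosen with earlier results of these data known. Figures used matplotlib 3.10.9.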

Additional observations from a re-analysis of the deposited data

How the results depend on the processing

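At P60 minus P3 the main count of 14 was 7 of 8 with 1 probe set per gene and 14 to 15 without single arrays, and the brightest probe sets of Ctsk, Acp5, Mmp9, Calcr, Atp6v0d2, Nfatc1 and Tnfrsf11b passed without each array in turn. P60 minus P13 (12) was 6 of 8 with 1 probe set per gene and 11 to 12 without single arrays. P13 minus P7 (7) was 2 with a log2 threshold of 1.5, 12 with array weights, 1 in α9−/− arrays alone and 6 to 10 without single arrays. P7 minus P3 (2) was 0 with the log2 threshold, 1 among probe sets of high variance, 1 without the 5 arrays of high Gapdh 3′ signal, 0 in α9−/− alone, 0 in wild type alone and 0 to 2 without single arrays. The α9−/− and wild type comparison at P13 (0) gave 2 with array weights. These were Tnfrsf11b 1418309_at (3.45, adjusted p = 0.000711 from limma) and Tnfrsf11a 1430259_at (-1.61, adjusted p = 0.0052). Others had an adjusted p under 0.05 with these weights but lay below the log2 threshold of 1.5. They included Mmp9 1448291_at (1.49), Calcr (-0.95), and Nfatc1 1425761_a_at (1.44), 1447084_at (-1.06) and 1447085_s_at (-0.53). The share of all probe sets that passed with array weights was not counted, here or between ages. Without single arrays the P13 count was 0 to 2. The 2 appeared without P13 wild type replicate 3, whose removal left only wild type arrays of high Gapdh 3′ signal: Tnfrsf11b 1418309_at (3.57) and Mmp9 1448291_at (1.64). The interactions of P13 against P7 and of P60 against P13 (0 each) gave 2 each with array weights. The cause of these changes was not tested.

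The main comparisons treated the samples as unpaired. Deviations of same-numbered arrays correlated from -0.62 to 0.59, above 0.1 in 7 of 12 pairs, which does not settle whether replicate numbers pair them. With the replicate number as a block the genotype comparison called 0 at each age, as without it. No called value changed sign under any alternative run. With 3 pools a group, differences below about the intervals given could not be seen.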
